A study of Mus musculus with 20 samples.

Results

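A set of 10 genes of hepatic de novo lipogenesis was followed in the livers of 20 mice on a diet that leads to steatohepatitis. They were Fasn, Acaca, Acacb, Acly, Scd1, Elovl6, Srebf1, Me1, Thrsp and Gpam, chosen by name as genes of fatty acid synthesis and its control. All 10 were found among the 22180 mouse genes that the array table named through probe sets with a single gene symbol, and each rested on 1 probe set. The comparison was between 10 wild-type (WT) and 10 Bnc2 heterozygous mice, and the same genes were then related, mouse by mouse, to Col1a1, the collagen gene used in the study as a molecular marker of fibrosis.

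Both groups were adult males of a C57BL/6 x CBA background and had been fed for 7.5 weeks the choline-deficient, amino acid-defined diet enriched in fat, sucrose and cholesterol (CDAA-HFSC). Heterozygous mice carried 1 Bnc2 allele disrupted by a gene trap insertion in every cell of the body, and the WT mice were their littermates. Mice on a chow diet were not analysed here, so every level below is a level under the diet. Each mouse gave 1 whole-transcript array of total liver RNA, with values on the log2 scale, and each array stood for a separate mouse.

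De novo lipogenesis turns surplus carbohydrate into fatty acids. Citrate exported from mitochondria is split into acetyl-CoA by ATP citrate lyase (Acly), acetyl-CoA is carboxylated to malonyl-CoA by acetyl-CoA carboxylases (Acaca, Acacb), and fatty acid synthase (Fasn) builds palmitate from malonyl-CoA with NADPH that malic enzyme (Me1) helps to supply. Elovl6 lengthens palmitate, Scd1 introduces a double bond, and Gpam adds a fatty acid to glycerol phosphate on the way to triglycerides. In liver the program follows insulin and carbohydrate intake through the transcription factors SREBP1 (Srebf1) and ChREBP (Mlxipl), and Thrsp, a small protein induced by thyroid hormone and carbohydrate, promotes it.

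The promoters of the genes are shown for Fasn, Acly and Thrsp, whose levels increased with that of Srebf1 in the same livers (values below). Each line gives the 130 bases before the annotated start in the promoter table of RefSeq (GRCm38.p6), read 5′ to 3′ on the minus strand, which carries all 3 genes. Capitals mark CCAAT, the box bound by NF-Y, and GGGCGG, the box bound by Sp1, on either strand.
Fasn, chr11:120824548-120824677: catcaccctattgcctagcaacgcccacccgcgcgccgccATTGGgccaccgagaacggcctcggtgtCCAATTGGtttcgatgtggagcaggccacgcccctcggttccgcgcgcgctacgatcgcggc
Acly, chr11:100528001-100528130: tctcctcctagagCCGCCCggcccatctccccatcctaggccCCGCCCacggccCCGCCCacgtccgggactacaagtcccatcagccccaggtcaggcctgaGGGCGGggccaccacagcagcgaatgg
Thrsp, chr7:97417551-97417680: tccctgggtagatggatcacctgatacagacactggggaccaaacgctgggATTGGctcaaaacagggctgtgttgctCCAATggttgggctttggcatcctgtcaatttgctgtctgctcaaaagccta

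Fasn held 3 CCAAT matches in this window, of which the inner pair overlapped on opposite strands and reads CCAATTGG. Thrsp held 2 CCAAT matches, and Acly none but 4 GGGCGG matches. The Fasn start of that table lies inside the interval that the gene table gives to Fasn. The search covered the 250 bases before each start, on both strands, in the 13 promoters listed for 9 of the 10 genes. CCAAT was found in 7 of the 13, against 33.8% of all 32851 promoters, and GGGCGG in 5, against 32.7%. The E box CATGTG was found in 3 of the 13, those of Acacb, Me1 and Srebf1, against 12.3% of promoters. The core of a sterol regulatory element, TCACNCCAC, and the E box CACGTG were in none of the 13, against 1.05% and 6.02% of all promoters. These matches are a description of the letters in the windows.

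Facts of the whole series that bear on these values were few. Array medians ran from 6.62 to 6.71 and arrays correlated at 0.987 to 0.995, while the interquartile range of an array, the width of its distribution of values, ran from 3.76 to 4.25 and was smallest in WT mouse 6, heterozygous mouse 9, heterozygous mouse 10 and WT mouse 4. Bnc2 itself read 5.37 ± 0.25 in WT and 5.41 ± 0.13 in heterozygous livers (SD, n = 10 each), below the value of 6.99 under which 95% of 1088 olfactory receptor genes lay, so it gave no check of the genotype at this level. Liver identity was read from hepatocyte markers such as Alb and Ttr, at mean levels of 19.9 and 19.8. Of the 11 hepatocyte markers 6 lay within 1 log2 unit of 19.9, the highest value in the table, so their summed level (22.42 to 22.49 on the log2 scale in WT and 22.42 to 22.50 in heterozygous livers) had little room to vary and gave no check of hepatocyte content. Of 8 adipocyte markers 6 were below the olfactory receptor percentile, among them Adipoq, Lep and Plin1, fat-cell genes at 5.39, 4.63 and 4.84. Fewer cells of a type and less RNA per cell cannot be told apart in whole liver.

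The lipogenic genes differed widely between mice of the same genotype. Thrsp spanned a 40.6-fold range over the 20 livers, Fasn a 10.1-fold range and Elovl6 an 8.00-fold range. Their SD within genotype was at percentile 99.9, 99.8 and 99.3 of all genes. Acacb, Srebf1, Me1, Acaca and Acly lay between percentiles 92.8 and 97.6, with ranges of 2.85-fold (Acly) to 4.82-fold (Srebf1). Scd1 and Gpam were at percentiles 44.3 and 45.9, so the desaturase and the acyltransferase varied less than most genes of the array. The Scd1 values of 18.5 to 19.4 lay close to that highest value, and the Acacb mean of 7.03 lay close to the olfactory receptor percentile of 6.99. The part of either end of the scale in the spread was not tested.

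In the comparison of genotypes, all 10 genes had a higher mean in heterozygous livers, against 51% of all genes, but the difference passed the test for none of them. With limma and Benjamini-Hochberg adjustment over all genes, 0 of 10 were called (background 0%, 0 of 22180 genes), and at an unadjusted p under 0.05 it was 1 of 10, Gpam (background 6.41%, 1422 genes, or 2.78% when only genes higher in heterozygous mice are counted). The median difference over the 10 genes was 0.24 on the log2 scale, against 0.0027 over all genes, and the 10 genes are correlated with each other in these mice, so their shared direction is not 10 separate observations.

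**Figure D1:**
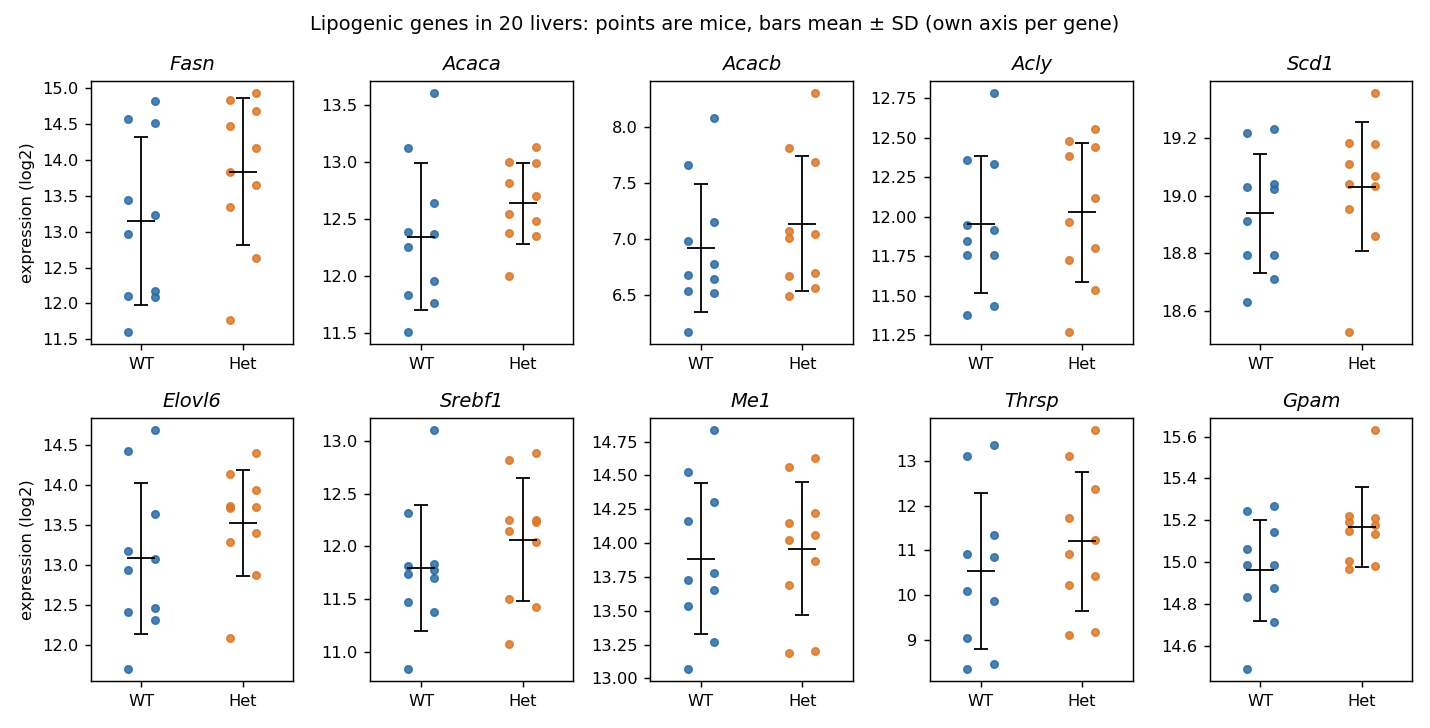
Expression (log2, own axis per gene) of the 10 lipogenic genes in 10 WT and 10 heterozygous livers, with points for mice and bars for mean ± SD. The groups overlap for every gene, and the points of Thrsp and Fasn spread over the widest ranges, 5.35 and 3.33 log2 units.

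Fasn showed the highest difference. It ran from 11.6 in the lowest WT mouse through a median of 13.1 to 14.8 in the highest, and in heterozygous mice from 11.8 through 14.0 to 14.9. The groups covered nearly the same range, with 8 of 10 heterozygous mice above the WT median and 2 above the highest WT mouse. The fold, heterozygous over WT, was 1.60 (95% interval 0.848 to 3.03, adjusted p = 0.859 in limma, permutation p = 0.18). The interval reaches from a decrease to an increase of about 3-fold.

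The enzymes before Fasn in the pathway, and Me1, gave differences that were not tested against that of Fasn. Acly ran from 11.4 through 11.9 to 12.8 in WT and from 11.3 through 12.0 to 12.6 in heterozygous livers, a fold of 1.05 (0.814 to 1.36). Acaca, the cytosolic carboxylase, ran from 11.5 through 12.3 to 13.6 in WT and from 12.0 through 12.6 to 13.1 in heterozygous livers, a fold of 1.23 (0.904 to 1.67). The heterozygous mice lay within the WT range for Acaca, while 9 of 10 were above the WT median. Acacb, the mitochondrial carboxylase whose malonyl-CoA restrains fatty acid oxidation, had a fold of 1.16 (0.823 to 1.64), and Me1 of 1.05 (0.772 to 1.43). Their adjusted p in limma ran from 0.879 (Acaca) to 0.985 (Me1).

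The genes that modify or use the new fatty acid gave the following values. Elovl6 ran from 11.7 through 13.01 to 14.7 in WT and from 12.1 through 13.7 to 14.4 in heterozygous livers, a fold of 1.36 (0.846 to 2.20, adjusted p = 0.886 in limma). Scd1 ran from 18.6 through 19.0 to 19.2 in WT and from 18.5 through 19.0 to 19.4 in heterozygous livers, a fold of 1.07 (0.929 to 1.22). The Scd1 values of all 20 mice lay within 0.83 log2 units and the groups overlapped throughout. Gpam ran from 14.5 through 15.0 to 15.3 in WT and from 15.0 through 15.2 to 15.6 in heterozygous livers, a fold of 1.15 (1.00 to 1.33, unadjusted p = 0.0443, adjusted p = 0.770 in limma, permutation p = 0.0461). Of the heterozygous mice, 8 of 10 were above the WT median of Gpam and 1 was above the highest WT mouse. All 10 were above the WT mean of 14.96, the lowest of them, mouse 1, only just at 14.97. The unadjusted p of Gpam in limma was 0.05 or more in 13 of the 20 fits that left out 1 mouse, WT or heterozygous, and ran from 0.0208 (without WT mouse 9) to 0.0984 (without WT mouse 2), with 0.0979 without heterozygous mouse 7, the highest.

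The regulators followed the same pattern of wide overlap. Srebf1 ran from 10.8 through 11.8 to 13.1 in WT and from 11.1 through 12.2 to 12.9 in heterozygous livers, a fold of 1.20 (0.851 to 1.70, adjusted p = 0.920 in limma). Thrsp ran from 8.35 through 10.5 to 13.4 in WT and from 9.11 through 11.1 to 13.7 in heterozygous livers, a fold of 1.58 (0.608 to 4.09, adjusted p = 0.934 in limma). With the spread of Thrsp between mice, this interval held both no change and a 4-fold increase.

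**Figure D2:**
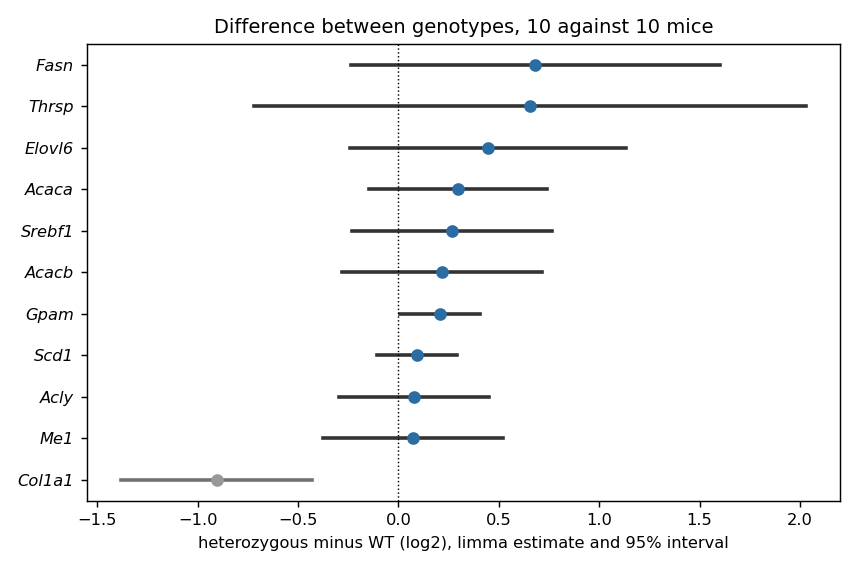
Heterozygous minus WT difference (log2) of each lipogenic gene and of Col1a1 in limma, with points for the estimate and lines for the 95% interval. All 10 lipogenic estimates lie right of 0 and 9 of 10 intervals cross it, while Col1a1 lies at -0.91 with an interval from -1.38 to -0.43.

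Col1a1, by comparison, was lower in heterozygous livers at 0.534 of the WT level (0.384 to 0.743, permutation p = 0.00179), although it did not pass adjustment over all genes either (adjusted p = 0.459 in limma). Of the WT mice 5 were above every heterozygous mouse, and 1 more lay within 0.001 of the highest of them at 12.28. Other gene lists had lower means in heterozygous livers too, without a member past adjustment. Of 12 stellate cell and myofibroblast markers, Col1a1 among them, 10 had a lower mean (background 49%) and 6 an unadjusted p under 0.05 (background 3.63% for lower genes), and their summed level ran from 17.95 to 18.42 (log2) in WT and from 17.87 to 18.17 in heterozygous livers. Means were also lower for 11 of 12 macrophage markers (2 at an unadjusted p under 0.05, summed level 17.35 to 17.89 against 17.02 to 18.12), 8 of 9 T and NK cell markers (4, 9.65 to 10.99 against 9.04 to 10.13) and 6 of 6 cholangiocyte markers (0, 9.36 to 11.45 against 9.51 to 11.08). Of the last 2 lists 6 and 4 markers lay below the olfactory receptor percentile, among them Cd3d and Krt19. Of 9 genes that fasting induces in liver, 8 had a lower mean in heterozygous mice and 3 an unadjusted p under 0.05, with a median difference of -0.47 on the log2 scale. Their summed level ran from 18.1 to 19.3 (log2) in WT and from 17.9 to 18.9 in heterozygous livers. Irs2, an insulin receptor substrate that rises in fasting, was at 0.547 of the WT level (0.393 to 0.763), and Pck1, the gluconeogenic carboxykinase, at 0.668 (0.503 to 0.888), with adjusted p of 0.459 and 0.613 in limma. The part of cell composition or feeding state in the lipogenic differences was not tested.

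Other lists of lipid synthesis were split in direction between genotypes. Means were higher in heterozygous mice for 5 of 9 genes of carbon and NADPH supply, 7 of 11 partners of elongation and desaturation, 3 of 10 genes of triglyceride assembly, 8 of 17 regulators of lipogenesis and 7 of 10 genes of cholesterol synthesis. The list medians, in log2 units, ran from -0.08 to 0.10. The glucose transporter Slc2a2 had a fold of 1.23 (1.02 to 1.49), Cyb5r3, which passes electrons to the desaturases, of 1.13 (1.04 to 1.23), and the phosphatidate phosphatase Lpin2 of 0.631 (0.436 to 0.913), none of them past adjustment.

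Individual mice of 1 genotype differed in most of the lipogenic genes at once. After each gene was centred within genotype and scaled to its SD, the mean over the 10 genes was highest in WT mouse 1 (1.26) and heterozygous mouse 7 (1.10), followed by WT mouse 8 (0.959) and WT mouse 7 (0.939). It was lowest in heterozygous mouse 9 (-1.46) and WT mouse 6 (-1.003). In heterozygous mouse 7 all 10 genes were above their genotype mean, and in heterozygous mouse 9 none was. Because of the centring, mice above and below 0 had to occur in both genotypes.

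**Figure D3:**
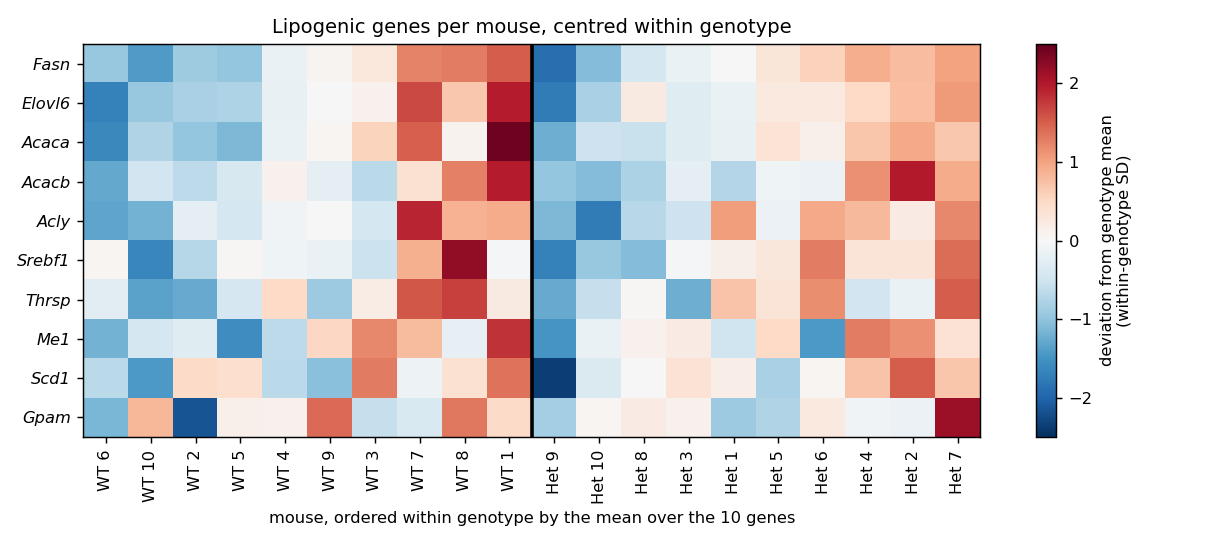
Deviation of each lipogenic gene (rows) from its genotype mean in each of 20 mice (columns, ordered within genotype by the mean over the 10 genes), in units of the SD within genotype. Most genes change colour together from left to right, from a mean of -1.46 in heterozygous mouse 9 to 1.10 in heterozygous mouse 7, while Gpam and, in several mice, Me1 and Thrsp do not.

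All 45 pairs of lipogenic genes correlated above 0 over the 20 mice after centring within genotype, with Pearson's r from 0.06 (Gpam with Scd1) to 0.94 (Elovl6 with Acaca) and a median of 0.59. The closest trio was Fasn, Elovl6 and Acaca, the synthase, the elongase and the carboxylase that makes its substrate. Elovl6 with Fasn gave r = 0.93 (Spearman's rho = 0.94, permutation p = 1e-05 for both, the smallest that 100000 permutations give), and r was 0.91 without the 2 mice farthest from the median of Fasn. The same pair gave r = 0.93 within WT and 0.95 within heterozygous mice. The weakest relations were those of Gpam and a division between Me1 and the pair Srebf1 and Thrsp. Me1 correlated with Acaca at 0.82 but with Srebf1 and with Thrsp at 0.13 each (rho = 0.21 and 0.19, permutation p of r = 0.602 and 0.611).

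**Figure D4:**
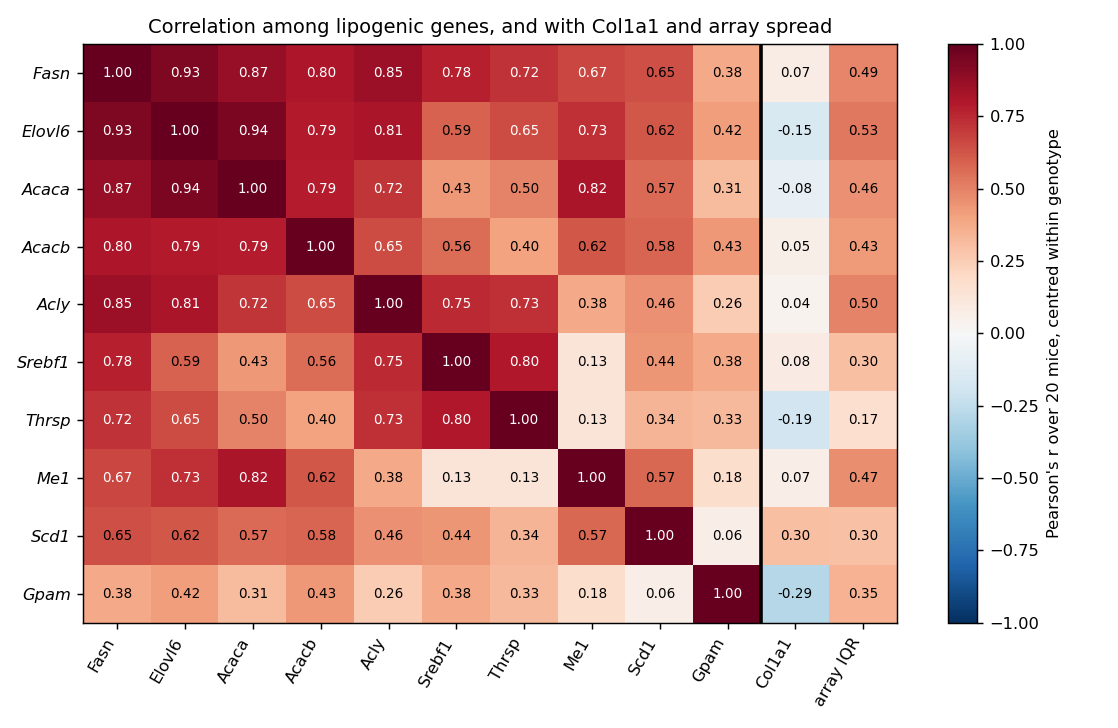
Pearson's r over 20 mice, centred within genotype, between the lipogenic genes and, right of the line, with Col1a1 and with the interquartile range of the array (IQR). Values among the 10 genes are all above 0 with a median of 0.59, whereas those with Col1a1 lie between -0.29 and 0.30.

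To set these relations against all other genes, Fasn was used as a term beside genotype in limma, a choice made after the values had been seen. Of the 9 other lipogenic genes, 7 increased with Fasn after adjustment over all genes (background 1.83%, 405 of 22179 genes, 335 of them increases). They were Elovl6, Acaca, Acly, Acacb, Srebf1, Thrsp and Me1. The slope, in log2 units per log2 unit of Fasn, was 0.69 for Elovl6 (95% interval 0.57 to 0.82, adjusted p = 4.4e-06), 0.41 for Acaca (0.30 to 0.53) and 0.34 for Acly (0.24 to 0.44). Thrsp had a slope of 1.08 (0.61 to 1.55), and its SD within genotype was 1.65 log2 units against 1.10 for Fasn. Me1 was nearest the threshold (0.32, adjusted p = 0.0431), and it passed in 9 of the 20 fits that left out 1 mouse. Scd1 and Gpam had slopes of 0.13 (adjusted p = 0.085) and 0.08 (adjusted p = 0.389). Without heterozygous mouse 9, the lowest liver, 5 of 9 genes and 116 of all genes were past the threshold.

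The same fit was run with each of the other genes as the term, and Srebf1 is described separately. With Acly as the term, 6 of the 9 other lipogenic genes increased (background 2.41%), with Elovl6 5 (background 1.41%), with Acaca 4 (background 0.189%), with Thrsp 3 (background 0.55%) and with Acacb 3 (background 0.0316%). These backgrounds count both directions. Increases were 442 of 535 genes with Acly, 264 of 313 with Elovl6, 39 of 42 with Acaca, 90 of 122 with Thrsp and 6 of 7 with Acacb. Me1 as the term gave 1 of 9 (background 0.00902%), and Scd1 and Gpam gave 0 of 9 (background 0.00451% and 0%), with 7 of 9 and 2 of 9 at an unadjusted p under 0.05 (background 8.33% and 5.77%). Fasn, Acly and Elovl6 had the most partners past the threshold, and Scd1 and Gpam had none.

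With both genotypes pooled, arrays of smaller width tended to be those of livers low in these genes. Each of the 10 correlated above 0 with the interquartile range of its array, from 0.17 (Thrsp) to 0.53 (Elovl6). The relation rested largely on WT mouse 6 and heterozygous mouse 9, without which the values ran from -0.15 (Scd1) to 0.29 (Acly), with 0.14 for Elovl6. It ran from -0.16 (Thrsp) to 0.46 (Gpam) in WT mice alone and from 0.18 (Gpam) to 0.90 (Fasn) in heterozygous mice alone. In WT mice without mice 6 and 9 it ran from -0.35 (Thrsp) to -0.04 (Gpam). In heterozygous mice without mice 9 and 10 it ran from -0.17 (Scd1) to 0.70 (Acaca). RNA integrity, feeding state and time of sampling of single livers are not given in the sources used here, and their part in array width and in the shared variation was not tested. In limma 0 of 10 passed adjustment for that relation (background 14.8%), and 6 of 10 had an unadjusted p under 0.05 (background 31.8%). With the interquartile range as a covariate, 6 of 9 genes increased with Fasn (69 of all genes), and 43 of the 45 pairs still correlated above 0, with a median of 0.53. Without the 4 arrays of smallest interquartile range, 2 of 9 genes, Elovl6 and Acaca, and 6 of all genes were past the threshold, with slopes of 0.66 for Elovl6 and 0.445 for Acaca. The 5 genes that lost their call had slopes of 0.32 (Acly), 0.45 (Acacb), 0.43 (Srebf1), 1.23 (Thrsp) and 0.30 (Me1), against 0.34, 0.43, 0.42, 1.08 and 0.32 over all 20 mice.

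Srebf1, which encodes the transcription factor of the program, was used as a term in the same way. Of the 9 other genes, 3 increased with it after adjustment (background 0.167%, 37 of 22179 genes, 25 of them increases). Thrsp had a slope of 2.25 log2 units per log2 unit of Srebf1 (1.497 to 3.00, adjusted p = 0.0249 in limma), Fasn of 1.46 (0.93 to 1.99, adjusted p = 0.0303) and Acly of 0.55 (0.32 to 0.79, adjusted p = 0.0461). The liver lowest in Srebf1 among WT mice, mouse 10 at 10.8, was also the lowest in Thrsp (8.35) and Fasn (11.6). The highest, mouse 8 at 13.1, was the highest in Thrsp (13.4). It was not the highest in Fasn. That was WT mouse 1 (14.8), whose Srebf1 value of 11.77 was close to the WT median of 11.76. Elovl6, Acacb, Acaca and Scd1 had slopes of 0.82, 0.56, 0.38 and 0.16 that did not pass (adjusted p from 0.159 to 0.400), and Me1 of 0.12 (-0.29 to 0.52, adjusted p = 0.850). The call depended on single mice. Thrsp passed in 16, Fasn in 14 and Acly in 3 of the 20 fits without 1 mouse, and none of the 3 passed without WT mouse 8, WT mouse 10, heterozygous mouse 7 or heterozygous mouse 9.

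The relation of Thrsp to Srebf1 was present in each genotype, at r = 0.85 in WT (permutation p = 0.00091) and 0.75 in heterozygous mice (permutation p = 0.0125), and at 0.80 over all 20 mice (rho = 0.74). Without the 2 mice farthest from the median of Srebf1 it was 0.73. For Fasn r was 0.68 in WT (permutation p = 0.0203) and 0.90 in heterozygous mice (permutation p = 0.00016). The rank correlation of Fasn was lower in WT, at rho = 0.44 (permutation p = 0.205), and r in WT fell to 0.46 without mice 8 and 10. Whether these relations differ between genotypes was not tested.

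**Figure D5:**
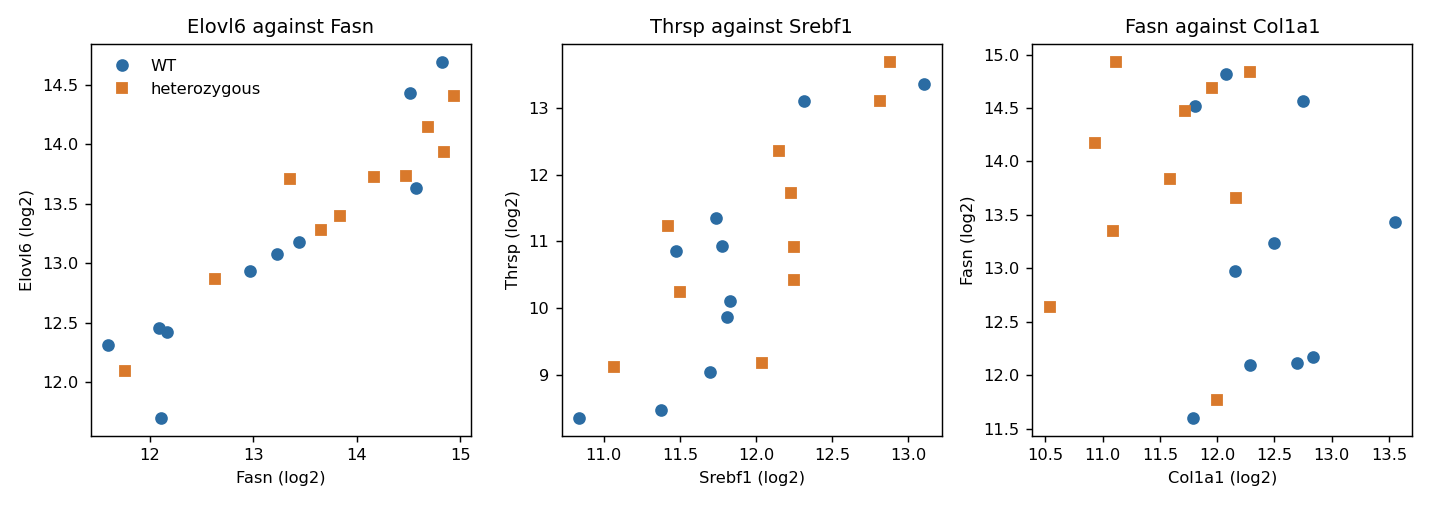
Expression (log2) in each of 20 livers of Elovl6 against Fasn, Thrsp against Srebf1 and Fasn against Col1a1, with circles for WT and squares for heterozygous mice. The points of the left and middle panels rise together (r = 0.93 and 0.80 after centring within genotype), and those of the right panel do not (r = 0.07).

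Members of 3 other lists increased with Fasn as well. In carbon and NADPH supply, 5 of 9 increased with Fasn and none decreased (background 1.51% for increases). They were Pklr, pyruvate kinase (slope 0.63, adjusted p = 0.000154 in limma), Khk, ketohexokinase (0.32), Slc25a1, the mitochondrial citrate carrier (0.12), Acss2, which makes acetyl-CoA from acetate (0.38), and Pgd of the pentose phosphate pathway (0.21). In cholesterol synthesis it was 4 of 10, Fdps (0.64), Lss (0.36), Cyp51 (0.29) and Dhcr7 (0.27). Among regulators it was 3 of 17, namely Mlx, the partner of ChREBP (0.18), Pnpla3, an acylglycerol lipase (0.29), and Xbp1 (0.14), the last named after its value was seen. No gene passed among 11 partners of elongation and desaturation, 10 genes of triglyceride assembly and 9 fasting-induced genes, where 1, 2 and 1 had an unadjusted p under 0.05 (background 17.5%). Markers of other cells were also read against Fasn. None passed adjustment among 8 sinusoidal endothelial and 11 hepatocyte markers. Of these, 4 and 2 increased at an unadjusted p under 0.05 (background 2174 of 22179 genes for increases). The mean of either list correlated with the lipogenic mean over the 20 mice (r = 0.66 and 0.55, centred within genotype). Such increases were seen in 1 of 12 stellate cell and myofibroblast markers and 0 of 12 macrophage markers (r = 0.09 and -0.20). They were seen in 0 of 9 T and NK cell, 0 of 6 cholangiocyte and 0 of 8 adipocyte markers (r = 0.04, 0.04 and -0.42). The summed level of the endothelial markers ran from 15.41 to 16.10 (log2) in WT and from 15.29 to 16.05 in heterozygous livers. The part of these cells in the shared variation was not tested.

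With Srebf1 as the term, 2 of the 17 regulators increased (background 0.167%, 37 of 22179 genes, 25 of them increases). They were Pnpla3 (0.65, adjusted p = 0.0249 in limma) and Mid1ip1 (0.50, adjusted p = 0.0359). Mid1ip1 binds the product of Thrsp and promotes acetyl-CoA carboxylase activity. Both genes had mean levels, 5.52 and 6.95, below the olfactory receptor percentile. Neither call held without WT mouse 8, heterozygous mouse 7 or heterozygous mouse 9, where 0 of all genes passed. Mlxipl, which encodes ChREBP, had a slope of -0.02 on Srebf1 and 0.10 on Fasn, neither past adjustment.

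The 10 genes most like the lipogenic mean, out of 11080 genes at or above the median level, were Cutal, Tmem184b, Pklr, Snd1, Fdps, Gramd1c, Taf12, Derl1, Cope and Slc25a44, with r from 0.90 to 0.85 over the 20 mice. After the interquartile range of the array was taken into account they still correlated at 0.79 (Slc25a44) to 0.89 (Pklr). Their likeness is a ranking and has no test.

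Col1a1 was the last comparison. It asked whether livers with more fibrotic gene expression held more or less of the lipogenic transcripts within a genotype. In limma with genotype as a term, none of the 10 genes changed with Col1a1 (0 of 10 adjusted and 0 of 10 at an unadjusted p under 0.05, background 0.018% and 7.4%). The 4 genes that did pass were Col1a2, Col3a1, Col4a2 and Gpx8. Slopes, in log2 units per log2 unit of Col1a1, ran from -0.55 for Thrsp (-1.85 to 0.74) to 0.14 for Fasn (-0.74 to 1.02), with 0.11 for Scd1 (-0.07 to 0.30). The intervals were wide for the genes that varied most and narrow for Scd1 and Gpam (-0.11, interval -0.30 to 0.08).

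Across mice, r with Col1a1 lay between -0.29 (Gpam) and 0.30 (Scd1) when centred within genotype, and none of the 10 had a permutation p under 0.05. The same held in WT mice alone (r from -0.34 to 0.47) and in heterozygous mice alone (-0.36 to 0.39). For Scd1, the highest, r was 0.30 (permutation p = 0.211, rho = 0.44 with permutation p = 0.0625), and it fell to 0.17 without WT mouse 3 and heterozygous mouse 10, the mice farthest from the median of Col1a1. For Fasn, r was 0.07 and its sign turned without the same mice (-0.09). In WT mice the values for Acaca and Elovl6 moved from -0.21 and -0.24 to -0.68 and -0.65 without WT mice 3 and 10, so they were stronger without those mice. Me1 turned from 0.09 to -0.43, and the 10 genes then ran from -0.68 (Acaca) to -0.001 (Srebf1) in WT mice. In heterozygous mice without mice 5 and 10 they ran from -0.68 (Thrsp) to 0.22 (Acacb). The values without these mice were not tested. The slope on Col1a1 differed between genotypes for 0 of 10 genes and 0 of 22179 genes after adjustment in limma (background 0%), and for 0 of 10 and 771 of all genes at an unadjusted p under 0.05 (background 3.48%).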

How the data were processed

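Livers of 20 mice, 10 WT and 10 Bnc2 heterozygous, were each hybridised to 1 Affymetrix mouse whole-transcript gene array. The deposited values are log2 expression values, which the authors made with Affymetrix Power Tools (GC correction, scaled intensities, then RMA for core genes). Neither the tool's version nor the build and annotation behind the values is given in the sources used here. The labels name no batch, and scanner files were not used here.

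Of 41345 probe sets, 23521 had exactly 1 gene symbol in the platform annotation. They were averaged per symbol, which gave 22180 genes, 1082 of them from several probe sets. Dim genes were kept. For genotype, lmFit and eBayes of limma 3.58.1 in R 4.3.3 gave the heterozygous minus WT difference, and p-values were adjusted by Benjamini-Hochberg over all genes (threshold 0.05). Relations to Col1a1, Srebf1, Fasn and the array interquartile range were slopes in limma with genotype as a term, each centred within genotype, and a further fit held the interaction of Col1a1 with genotype. Permutation tests were two-sided with 100000 resamples in numpy 2.4.6 (ranks from scipy 1.17.1), within genotype where both were pooled. The scripts were tested on simulated data. Precision is limited by the number of arrays.

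The genes named beyond the 10 lipogenic ones were, from each list, up to 3 each with the smallest unadjusted p for genotype, Col1a1 and Srebf1, and the 10 genes most correlated with the lipogenic mean. Marker genes of liver cell types and adipocytes, and genes the text says were named after their values, stand beside these. The members and lists were chosen with earlier results of these data known. Listed symbols outside the probe sets with 1 gene were not analysed here. Promoter sequences came from RefSeq (GRCm38.p6). The alternatives tried were quantile normalization, median centring, dropping genes under the median level, taking the brightest probe set, eBayes with trend, array weights, a replicate block, array width or a principal component as covariate, other collagen measures and leaving out mice.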

Additional observations from a re-analysis of the deposited data

Results flagged for a closer look

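Among the 10 lipogenic genes and Col1a1 in the 2 genotypes, 22 groups of 10 mice were examined for a mouse that stood apart, and 1 was found. Gpam in heterozygous mouse 7 was 15.63, against 15.22 in the next mouse, a gap of 0.6185 of the group's whole range where 0.466 is the critical value of Dixon's test. Chance flags about 1 in 20 groups. The same mouse was also the highest heterozygous liver for Fasn, Acly, Elovl6, Srebf1 and Thrsp. Without it the Gpam difference between genotypes was 0.15 on the log2 scale (unadjusted p = 0.0979 in limma), against 0.21 with it (unadjusted p = 0.0443), and the unadjusted p was 0.05 or more in 13 of the 20 fits without 1 mouse.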

How the results depend on the processing

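The genotype comparison gave 0 of 10 lipogenic genes past adjustment under every alternative run, including each fit without 1 mouse. Over all genes it gave 0, except 1 with a principal component of the residuals as covariate and 1 with genotype-centred Col1a1 as covariate. The 10 differences stayed above 0 in 198 of 200 fits without 1 mouse, which share most of their mice, and in all 110 others. Many of those others could not change a difference. Among them were the fits on genes at or above the median level, the brightest probe set and eBayes with trend. The replicate block, the principal component and genotype-centred Col1a1 also left it as it was. In each of these settings the Gpam difference was 0.2059, as in the main fit. Me1 ranged from -0.017 (without WT mouse 5) to 0.18. The Fasn term and the fits without the 4 arrays of smallest width were chosen after seeing the data. The fits with array interquartile range or a lipogenic gene other than Srebf1 as the term were outside the planned tests. The cause of the differences below was not tested.

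With Fasn as the term, all slopes stayed above 0. The 405 genes and 7 lipogenic genes became 199 and 6 with quantile normalization, 638 and 8 among genes at or above the median level, 69 and 6 with array interquartile range as covariate, and 6 and 2 with the 4 arrays of smallest interquartile range left out. Without 1 mouse they ranged from 116 (heterozygous mouse 9) to 559 (WT mouse 2) and from 5 to 7, with 219, 215, 266 and 173 genes without WT mouse 6, 7 or 8 or heterozygous mouse 10. Me1 ran from adjusted p = 0.0131 to 0.158 in limma, and Thrsp passed in 19 of 20.

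With Srebf1 as the term, the 37 genes and 3 lipogenic genes became 17 and 1 with quantile normalization, 23 and 2 with array interquartile range as covariate, 97 and 3 among genes at or above the median level, 71 and 3 with array weights, and 0 and 0 with the 4 arrays left out (2115 genes had an unadjusted p under 0.05 there). Without 1 mouse they ranged from 0 (WT mouse 8, heterozygous mouse 7 or 9) to 77 (WT mouse 6) and from 0 to 3. The Me1 slope turned to -0.0098 with array interquartile range as covariate and to -0.057 with the 4 arrays left out, and without 1 mouse ranged from -0.025 to 0.24.

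With Col1a1 as the term, 0 of 10 lipogenic genes passed in any alternative, and the 4 genes became 7 with array interquartile range as covariate, 2 with the 4 arrays left out and 2 to 7 without 1 mouse. The sign turned for Acacb with quantile normalization (-0.016) and for Acly with the 4 arrays left out (-0.074). Without 1 mouse slopes ranged from -0.18 to 0.025 for Acaca, -0.083 to 0.19 for Acacb, -0.15 to 0.14 for Acly, -0.12 to 0.33 for Fasn, -0.094 to 0.14 for Me1 and -0.041 to 0.20 for Srebf1.

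Mice of the 2 genotypes share replicate numbers, and the labels do not say whether these pair them. Whether same-numbered mice share a litter or a batch was not tested. The deviations of same-numbered mice correlated at -0.17 to 0.17, above 0.1 in 4 of 10 pairs, and 4 of 20 mice correlated best with their own number. With the replicate block, 0 genes passed with Fasn, Srebf1 or Col1a1 as the term (at an unadjusted p under 0.05, 7 of 9 lipogenic and 2800 of 22179 genes with Fasn, and 4 of 9 and 1555 with Srebf1), and the Col1a1 slope turned to -0.11 for Me1 and 0.23 for Thrsp.

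Array number, the closeness of Scd1 to the highest value of the table and of Acacb, Mid1ip1 and Pnpla3 to the level of olfactory receptor genes limit the precision.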

Other observations

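Clock genes, whose transcripts cycle with the time of day, were outside the lipogenic comparison. Of 11 measured, 8 had an unadjusted p under 0.05 for the slope on Col1a1, 6 of them below 0 and 2 above (background 7.4%), and 0 passed adjustment in limma. Ciart had a slope of -1.23 log2 units per log2 unit of Col1a1 (adjusted p = 0.274 in limma), Dbp of -0.80 and Per3 of -0.85. With Fasn as the term, 2 of the 11 had an unadjusted p under 0.05 (background 17.5%), and 0 passed adjustment. Between genotypes 0 of the 11 had an unadjusted p under 0.05 (background 6.41%).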
